A study of Mus musculus with 23 samples.

Results

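The circadian clock genes described here are Dbp, Tef, Per1, Per2, Per3, Cry2, Ciart, Nr1d1, Nr1d2 and Arntl, 10 of the 55335 genes in a count table of mouse hippocampus RNA sequencing. They were taken by gene symbol. Dbp was singled out because its difference between 3xTg and WT mice changed sign between 8 months and 10 months with vehicle. The genes were thus chosen by the values of Dbp in those 4 groups, and what these groups show is given below as a description. No p of a single member is printed for comparisons among them. Counts of members that passed a threshold are given, and nothing is read from them. All 10 genes passed the filter on low counts in every comparison, with between 68 counts (Ciart, the lowest) and 12733 counts (Tef, the highest) in a library.

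The clock of most cells is a loop of transcription and translation that runs with a period of about a day. The activator BMAL1, encoded by Arntl, pairs with CLOCK and switches on genes with an E-box, among them the Per and Cry genes, Ciart, the Rev-erb genes Nr1d1 and Nr1d2, and Dbp, and the PER, CRY and CIART proteins then hold the activator back. The REV-ERB proteins repress Arntl through ROR elements, so Arntl transcripts peak at another time of day than those of Dbp, and DBP and TEF carry the rhythm to other genes through the D-box. The hippocampus has such a clock, and the level of these transcripts in any one sample depends on the time of day at which the tissue was taken.

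The study set the 3xTg model of Alzheimer's disease beside WT mice of a C57BL/6J and 129S1 hybrid background, and all mice were female according to its methods. In 3xTg mice the human APP (Swedish) and tau (P301L) transgenes are driven by a neuronal element of the mouse Thy1 gene. Mice of 8 months were neither operated on nor treated, with n = 4 in each of WT-8M and 3xTg-8M. Mice of 10 months all carried a pump that infused the lateral ventricles over 28 days, either of vehicle with 0.8% DMSO (WT-D, n = 4, and 3xTg-D, n = 4) or of 80 µM of SCDi, an inhibitor of the lipid enzyme stearoyl-CoA desaturase, in that vehicle (WT-S, n = 3, and 3xTg-S, n = 4). Age, operation and infusion therefore went together, and their parts cannot be told apart. The library titles differ along the same line. Those of 8 months hold a letter L that those of 10 months lack, and the animal numbers are of another series. What the letter stands for is not given. The mice were kept on a reversed light cycle according to the study's methods. The time of day at which each hippocampus was collected is not given in the sources used here, so its part in any difference between groups was not tested.

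Libraries held 12.8M to 36.7M gene counts, and no 2 libraries were identical. 2 libraries stood apart from the other 21 in how steeply expression rose with transcript length, with a slope of 0.685 in 3xTg-8M replicate 4 and 0.711 in 3xTg-S replicate 2. Both also held much Ttr, the main transcript of choroid plexus, at 322 and 205 normalised counts (CPM, counts scaled to library size with TMM in edgeR), as did WT-S replicate 2 at 303 CPM, while no other library exceeded 80.0 CPM. The 6 choroid plexus markers summed to 365 CPM at most, against 1340 to 1750 CPM for the 6 markers of hippocampal neurons, all of which were detected. Several results of members that include these libraries are given with and without them, and the other results only with them. In bulk tissue, fewer cells of a type and less RNA per cell cannot be told apart.

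Promoter sequence bears on this set because its members are known to answer to shared elements. RefSeq promoter windows (GRCm38.p6, 250 bases before to 50 bases after a start) were at hand for 9 of the 10 genes, in 12 windows, and Per2 was without one. They were searched on both strands for the E-box CACGTG, the D-box TTATGTAA or TTACGTAA, the ROR core TAGGTCA or TGGGTCA, and the cyclic AMP element TGACGTCA, and no hit overlapped another. The E-box was in 4 windows of 3 genes and in 7.15% of all 32851 promoter windows. The stretches below hold the hits in capitals, in the direction of the gene, and are shown because they are the clock elements found in these windows. Tef had 1 E-box in each of its windows, Per1 had 1 and Ciart had 3.
Tef, chr15:81802534-81802563, plus strand: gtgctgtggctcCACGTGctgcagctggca
Tef second start, chr15:81811264-81811293, plus strand: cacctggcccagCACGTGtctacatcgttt
Per1, chr11:69098771-69098800, plus strand: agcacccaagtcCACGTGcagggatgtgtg
Ciart, chr3:95882252-95882359, minus strand: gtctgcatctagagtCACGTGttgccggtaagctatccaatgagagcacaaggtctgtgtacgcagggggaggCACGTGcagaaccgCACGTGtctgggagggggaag

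The D-box, the element that DBP and TEF bind, was found 2 times in the window of Per3 and in none of the other windows of these genes, against 1.06% of all windows. The ROR core, through which the REV-ERB proteins act, was in 1 window of Arntl, just past the start, against 6.45% of all windows. The cyclic AMP element was in none of the 12 windows, against 1.79% of all windows. These letters were not in the windows of Dbp, Nr1d1, Nr1d2 or Cry2, which covers only these bases. The stretches with the D-box and the ROR core are shown for the 2 genes that are read beside Dbp below.
Per3, chr4:151044801-151044885, minus strand: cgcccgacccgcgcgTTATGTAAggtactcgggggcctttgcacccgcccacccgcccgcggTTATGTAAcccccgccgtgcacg
Arntl second start, chr7:113207529-113207558, plus strand: gaaggcagaaagTAGGTCAgggacggaggt

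Levels differed widely between the genes when compared per kilobase of exon. Tef was the most abundant with a mean of 45.5 CPM per kb over the 23 libraries, followed by Nr1d1 (22.7), Nr1d2 (22.2), Dbp (17.3) and Cry2 (15.6). The Per genes were lower, at 8.31 for Per1, 6.02 for Per2 and 4.40 for Per3. Arntl was at 4.57 CPM per kb, and Ciart was the lowest at 3.60. Over all libraries, Ciart and Dbp spanned the widest range of CPM, 2.37-fold and 2.32-fold from the lowest to the highest library, and Tef the narrowest, 1.29-fold. Group means were lowest in WT-8M for 7 of the 10 genes (Dbp, Tef, Per2, Per3, Nr1d1, Nr1d2 and Ciart), while Arntl was the 1 gene with its highest mean there. The plot of each gene by library shows these values.

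**Figure D1:**
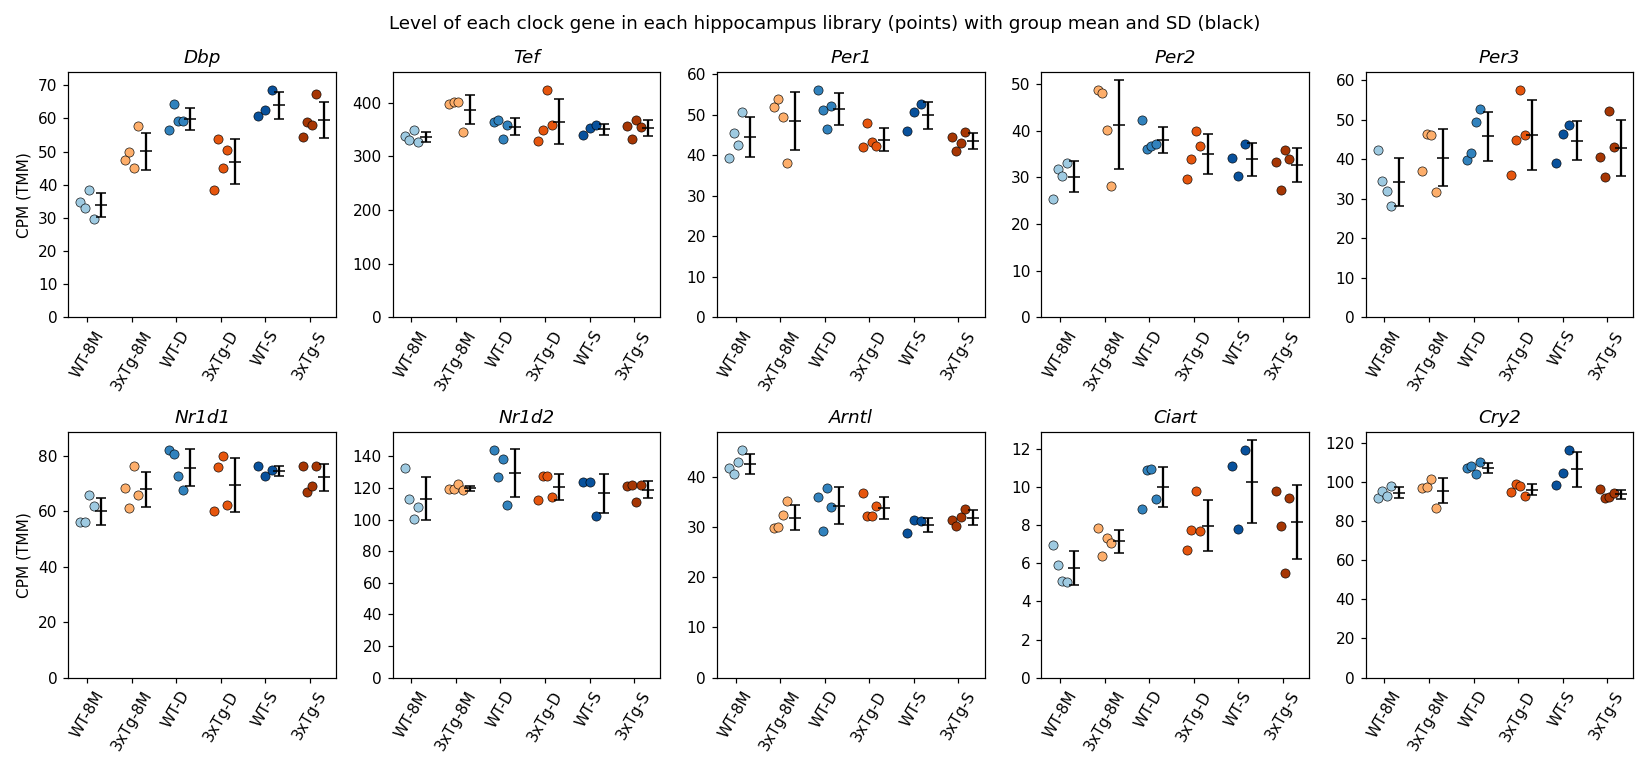
Level of each clock gene in CPM (y axis, from 0) in the 23 hippocampus libraries, by group (x axis). Points are libraries and the black mark with bars is the group mean ± SD (n = 4, WT-S n = 3). Dbp runs from 29.6 CPM in a WT-8M library to 68.6 CPM in a WT-S library, while Arntl is highest in WT-8M (40.6 to 45.3 CPM).

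Dbp, on chromosome 7 at 45705088 to 45710203 (GRCm38, plus strand), encodes a D-box activator whose transcript cycles strongly in most tissues. In WT-8M its 4 libraries held 34.9, 32.9, 38.3 and 29.6 CPM. In 3xTg-8M they held 47.5, 49.8, 45.1 and 57.8 CPM. Every 3xTg library was thus above every WT library at 8 months, with means of 50.03 ± 5.51 and 33.9 ± 3.65 CPM (SD, n = 4 each), which is 1.49-fold and a log2 fold change of 0.57 (SE 0.10). Without 3xTg-8M replicate 4, the highest of its group, the log2 fold change was 0.49. At 10 months with vehicle the order was turned around. WT-D held 56.5, 64.4, 59.1 and 59.1 CPM. 3xTg-D held 38.4, 53.9, 45.0 and 50.6 CPM. The groups again did not overlap, now with 3xTg lower, by 0.34 on the log2 scale (log2 fold change -0.34, SE 0.09). The means of 3xTg mice were close at both ages, 50.03 and 47.0 CPM, while those of WT mice were 33.9 and 59.8 CPM. The WT means of Dbp thus differed more between the ages than the 3xTg means did. This describes the groups on which Dbp was chosen. Which strain changed cannot be told, since age, operation and infusion went together.

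The infused mice with SCDi, which the choice of Dbp did not use, held 60.7, 62.7 and 68.6 CPM in WT-S. 3xTg-S held 54.3, 58.8, 58.0 and 67.3 CPM. These groups overlapped, and the strain difference of -0.10 (SE 0.08, 95% interval -0.28 to 0.07) did not pass (edgeR adjusted p = 0.729). With the inhibitor, neither sign of the earlier strain differences was thus seen beyond the spread, and the interval takes in small differences either way. In order of mean, Dbp stood at 64.0 CPM in WT-S, 59.8 in WT-D, 59.6 in 3xTg-S, 50.03 in 3xTg-8M, 47.0 in 3xTg-D and 33.9 in WT-8M. Each neighbouring pair in that order overlapped except the last, where the lowest 3xTg-D library (38.4 CPM) and the highest WT-8M library (38.3 CPM) all but met.

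Dbp was the 1 member whose groups did not overlap between SCDi and vehicle within 3xTg. 3xTg-S was 59.6 ± 5.49 CPM and 3xTg-D 47.0 ± 6.80 CPM (SD, n = 4 each), a log2 fold change of 0.34 (SE 0.10, 95% interval 0.12 to 0.55). It did not pass over all genes (edgeR adjusted p = 0.378). Without the filter on low counts it did (edgeR adjusted p = 0.0237), in a fit that called 112 genes. The 3xTg-D libraries in this comparison are among those on which Dbp was chosen. 6.88% of all 15530 genes tested with the filter had groups that did not overlap there, and 0% passed the adjusted threshold in that fit. In WT mice the same comparison gave 0.10 (SE 0.07, adjusted p = 0.981), and the inhibitor effects of the 2 strains differed by 0.24 (SE 0.13, 95% interval -0.04 to 0.51, adjusted p = 1). 0% of genes passed in either of these 2 comparisons. The first used WT-D and the second both vehicle groups, which are among the groups on which Dbp was chosen. The choice therefore bears on these values of Dbp, and they are a description.

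Dbp overlaps Sphk2 on the opposite strand, and 539 exon bases (18.0% of the Dbp exons) are shared. Whether reads were counted by strand is not stated, so reads from the 2 genes cannot be told apart over those bases. Sphk2, a sphingosine kinase, had means of 20.3 CPM in WT-8M against 23.5 CPM in 3xTg-8M, with a log2 fold change of 0.22 (SE 0.10). With vehicle its log2 fold change was 0.09 (SE 0.09), the opposite sign to that of Dbp, and it was 0.01 (SE 0.08) between 3xTg-S and 3xTg-D.

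Tef, on chromosome 15, encodes the relative of DBP that binds the same element, and its group means lay close together. 3xTg-8M held 397, 402, 402 and 346 CPM. WT-8M held 339, 330, 349 and 327 CPM. 3 of the 4 3xTg libraries were thus above all WT libraries at 8 months, and the fourth, 3xTg-8M replicate 4, lay within the WT range. The log2 fold change was 0.21 (SE 0.06), and 0.26 without that library, one of those that stood apart in the length slope. At 10 months Tef was between 328 and 423 CPM in every group, with strain differences of 0.04 (SE 0.07) with vehicle and 0.01 (SE 0.06, edgeR adjusted p = 0.975) with SCDi. Between SCDi and vehicle Tef overlapped in both strains, at -0.05 (SE 0.07, adjusted p = 0.792) in 3xTg and -0.02 (SE 0.05, adjusted p = 0.993) in WT.

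Per1, a repressor of the loop that also answers quickly to light and to neuronal activity, had lower means in 3xTg than in WT at 10 months in both infusions. With vehicle WT-D held 56.1, 51.1, 46.4 and 52.3 CPM. 3xTg-D held 41.9, 47.9, 43.3 and 42.3 CPM. Only the highest 3xTg-D library exceeded the lowest WT-D library, and the log2 fold change was -0.23 (SE 0.07). With SCDi, WT-S held 46.0, 50.7 and 52.7 CPM. 3xTg-S held 44.6, 41.1, 42.9 and 45.7 CPM. These groups did not overlap, with a log2 fold change of -0.19 (SE 0.07, 95% interval -0.35 to -0.04), which did not pass over all genes (edgeR adjusted p = 0.312). At 8 months Per1 had the other sign, 0.13 (SE 0.11), and 3xTg-8M replicate 4 was the lowest of its group at 38.0 CPM against 49.5 to 54.0 CPM in the other 3. Without that library the 8-month value was 0.23.

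Per2, a repressor like Per1, had the second largest strain difference after Dbp at 8 months among the members with higher levels in 3xTg. 3xTg-8M held 48.7, 48.2, 40.1 and 28.2 CPM. WT-8M held 25.4, 31.8, 30.4 and 33.0 CPM. 3 of the 3xTg libraries lay above all WT libraries and 3xTg-8M replicate 4 lay below 3 of them, so the log2 fold change was 0.47 (SE 0.15) with it and 0.61 without it. At 10 months with vehicle Per2 was 38.0 ± 2.82 CPM in WT-D, against 35.1 ± 4.33 CPM in the 3xTg-D libraries, a log2 fold change of -0.11 (SE 0.09). With SCDi the strain difference was -0.05 (SE 0.10, edgeR adjusted p = 0.909), and the inhibitor effect was -0.11 in 3xTg (SE 0.10, adjusted p = 0.680) and -0.16 in WT (SE 0.09, adjusted p = 0.981).

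Per3, the third Per gene and the 1 with D-box letters in its promoter window, varied more between animals of a group than all other members but Ciart, with a within-group SD of 0.24 on the log2 scale. Its group means ran from 34.3 ± 5.99 CPM in WT-8M to 46.2 ± 8.85 CPM in 3xTg-D. It overlapped between strains at 8 months (log2 fold change 0.24, SE 0.14), with vehicle (0.02, SE 0.13) and with SCDi (-0.07, SE 0.11, edgeR adjusted p = 0.899). With vehicle, where all Dbp values of 3xTg lay below those of WT, Per3 thus had nearly equal means.

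Cry2, which encodes a partner of the PER proteins, was the member with the least spread within groups, with an SD of 0.07 on the log2 scale. With vehicle WT-D held 107, 108, 104 and 110 CPM. 3xTg-D held 94.8, 99.1, 97.6 and 92.5 CPM. The strains did not overlap, with 3xTg lower and a log2 fold change of -0.15 (SE 0.05). With SCDi, WT-S held 98.3, 105 and 116 CPM. 3xTg-S held 96.5, 91.7, 92.0 and 94.1 CPM. Again every 3xTg library was below every WT library, by a log2 fold change of -0.18 (SE 0.07, 95% interval -0.33 to -0.04), and again this did not pass over all genes (edgeR adjusted p = 0.307). At 8 months the strains overlapped, with a log2 fold change of 0.02 (SE 0.06).

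Ciart, a repressor of the CLOCK and BMAL1 pair, was the least abundant member and the one with the widest spread between animals. 3xTg-8M held 7.85, 6.39, 7.34 and 7.07 CPM. WT-8M held 6.97, 5.90, 5.08 and 5.04 CPM. The strains overlapped in 1 library on each side, with a log2 fold change of 0.32 (SE 0.14). With vehicle the means were 7.99 ± 1.32 CPM in 3xTg-D and 10.0 ± 1.07 CPM in WT-D, so the log2 fold change was -0.31 (SE 0.13), the same pair of signs as in Dbp. With SCDi the strain difference was -0.32 (SE 0.20, 95% interval -0.76 to 0.12, edgeR adjusted p = 0.644), and 3xTg-S ran from 5.49 to 9.79 CPM. Leaving out replicate 3 of 3xTg-S gave -0.17, and leaving out replicate 2 of WT-S gave -0.49.

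The Rev-erb genes, nuclear receptors that repress Arntl, overlapped between the strains in every comparison. Nr1d1 was 68.0 ± 6.35 CPM in 3xTg-8M against 59.9 ± 4.81 CPM in WT-8M (log2 fold change 0.19, SE 0.08), and 69.6 ± 9.77 CPM in 3xTg-D and 75.8 ± 6.72 CPM in WT-D (-0.12, SE 0.10). Nr1d2 was 120 ± 1.68 CPM in 3xTg-8M against 113 ± 13.8 CPM in WT-8M (0.09, SE 0.08), and 121 ± 8.26 CPM in 3xTg-D and 130 ± 15.2 CPM in WT-D (-0.10, SE 0.08). With SCDi the differences were -0.05 for Nr1d1 (SE 0.07, edgeR adjusted p = 0.884) and 0.03 for Nr1d2 (SE 0.08, edgeR adjusted p = 0.941). Nr1d1 shares 263 exon bases (8.55%) with Thra on the opposite strand, whose log2 fold change at 8 months was 0.11 (SE 0.06).

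Arntl, on chromosome 7 at 113207465 to 113314126, encodes the activator of the loop and had the opposite pattern to Dbp at 8 months. WT-8M held 41.8, 40.6, 42.9 and 45.3 CPM. 3xTg-8M held 29.9, 30.03, 32.5 and 35.3 CPM. All 3xTg libraries lay below all WT libraries, with means of 31.9 ± 2.53 and 42.7 ± 2.02 CPM (SD, n = 4 each) and a log2 fold change of -0.41 (SE 0.07). Without 3xTg-8M replicate 4 the log2 fold change was -0.47. At 10 months the strains overlapped. WT-D held 36.1, 29.3, 37.9 and 34.0 CPM. 3xTg-D held 36.8, 32.3, 32.2 and 34.2 CPM, within the same range, and the log2 fold change was -0.02 (SE 0.08, 95% interval -0.20 to 0.17). With SCDi it was 0.06 (SE 0.07, edgeR adjusted p = 0.817). WT-8M was the group that stood apart, since the other 19 libraries all lay between 28.8 and 37.9 CPM and the lowest WT-8M library held 40.6 CPM. The plot of Dbp against Arntl shows WT-8M alone at the low end of Dbp and the high end of Arntl.

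**Figure D2:**
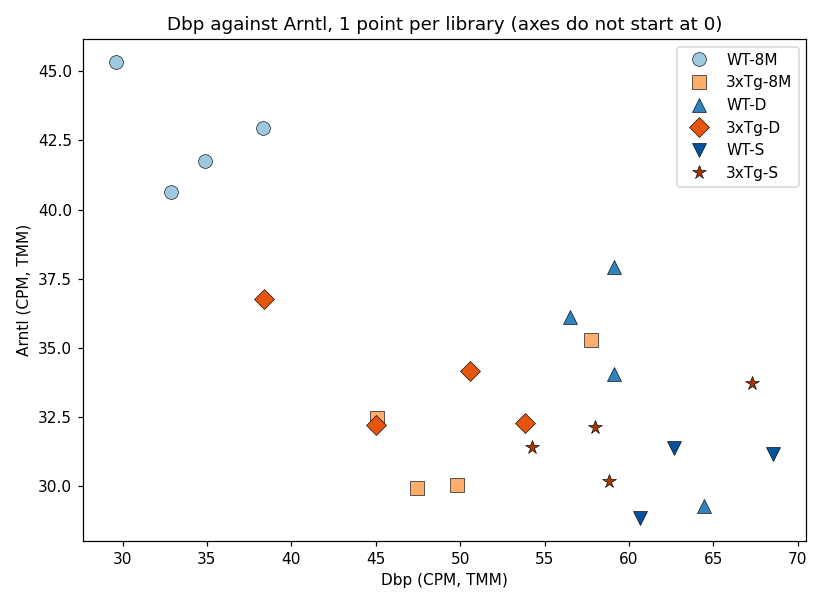
Dbp (x axis, CPM) against Arntl (y axis, CPM) in the 23 libraries, 1 point each, with a symbol and colour for each of the 6 groups. The 4 WT-8M libraries (Dbp 29.6 to 38.3 CPM, Arntl 40.6 to 45.3 CPM) sit apart at the upper left, and the groups of 10 months overlap in Arntl.

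By count, 9 of the 10 genes had a positive log2 fold change at 8 months and 8 of 10 a negative one with vehicle. The median over the members was 0.20 at 8 months, beside 0.01 over all genes tested, and -0.11 with vehicle, beside 0.00 over all genes. With SCDi 7 of 10 were negative, with a median of -0.06 beside 0.00. The 9 genes other than Dbp were positive in 8 cases at 8 months and negative in 7 with vehicle, Tef and Per3 being the 2 that were not.

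At 8 months 2 members passed an adjusted p under 0.05, Dbp higher and Arntl lower in 3xTg, and 2.58% of all genes passed. Without 3xTg-8M replicate 4, 4 members passed, the others being Tef and Per2. The groups did not overlap for 2 members, the same pair, and for 10.5% of all genes. At 8 months 6 members had an unadjusted p under 0.05, beside 17.4% of all genes. With vehicle none of the members passed, beside 1.39% of all genes, 4 members had an unadjusted p under 0.05, beside 13.1% of all genes, and the DESeq2 likelihood ratio test called 1, Dbp. The groups did not overlap for 2 members, Dbp and Cry2, beside 8.05% of all genes. These counts come from the contrasts on which Dbp was chosen, so they are a description and nothing is read from them.

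With SCDi, in libraries that the choice did not use, none of the 10 genes passed the strain comparison, with edgeR or with the DESeq2 likelihood ratio test, beside 1.32% of all genes, and 2 had an unadjusted p under 0.05 (Per1 and Cry2), beside 10.6% of all genes. The same 2 had groups that did not overlap, beside 10.2% of all genes. For SCDi against vehicle, which uses vehicle groups on which Dbp was chosen, none passed in 3xTg or in WT, with either tool. At an unadjusted p under 0.05 there was 1 member in 3xTg, Dbp, beside 11.2% of all genes, and none in WT, beside 3.42%. In WT no member had groups that did not overlap, beside 4.90% of all genes. In 3xTg mice 7 of 10 log2 fold changes were negative and in WT mice 8 of 10, with medians of -0.03 and -0.02.

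**Figure D3:**
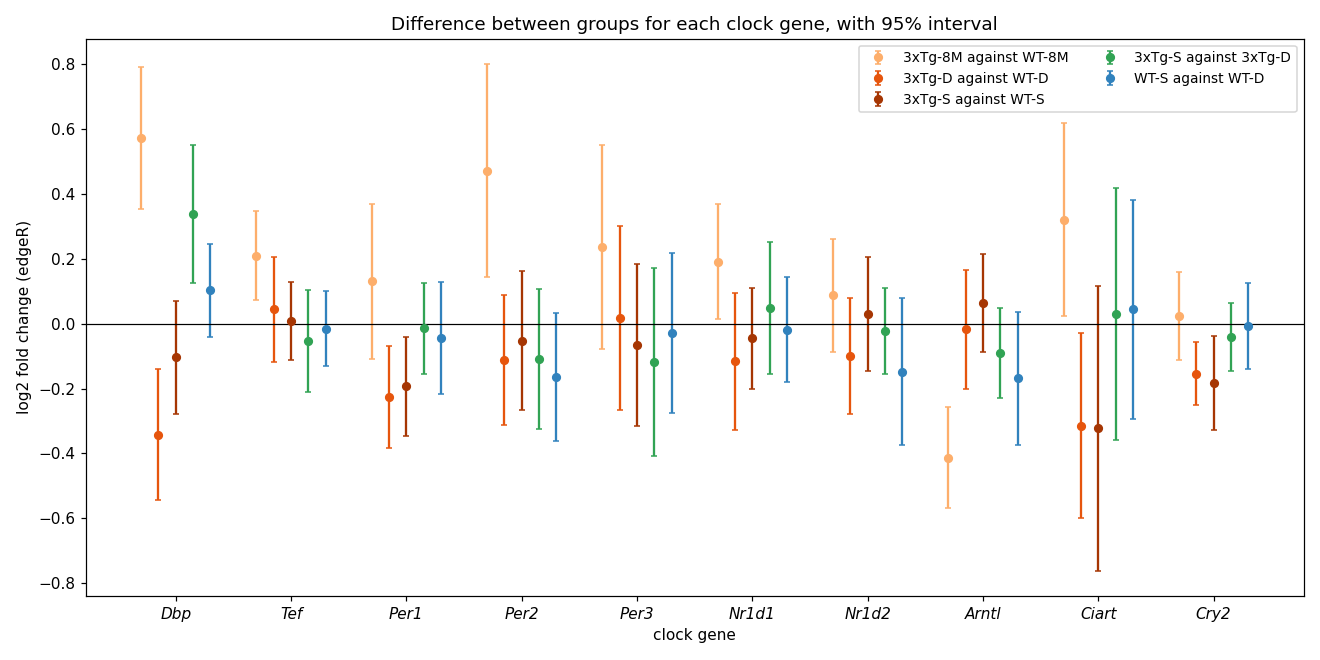
Log2 fold change (y axis) of each clock gene (x axis) in 5 comparisons, with the 95% interval from edgeR. Dbp is at 0.57 at 8 months, -0.34 with vehicle and -0.10 with SCDi, Arntl is at -0.41 at 8 months and near 0 at 10 months, and Per1 and Cry2 lie below 0 in both strain comparisons of 10 months.

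The study also set 3xTg-S against WT-D, which shares WT-D with the strain comparison under vehicle and 3xTg-S with that under SCDi. Dbp had nearly equal means there, at 0.00 (SE 0.07, 95% interval -0.15 to 0.15, edgeR adjusted p = 0.997). WT-D is among the groups on which Dbp was chosen, so the choice bears on this value of Dbp, which is a description. Per1 was at -0.23 (SE 0.07, adjusted p = 0.112), Per2 at -0.21 (SE 0.09, adjusted p = 0.236) and Cry2 at -0.19 (SE 0.05, adjusted p = 0.0628). None passed, and 2.29% of all genes passed. For these 3 members the groups did not overlap, beside 10.2% of all genes. In this comparison Per2 was at -0.135 without 3xTg-S replicate 2, which stood apart in the length slope. The DESeq2 likelihood ratio test called Cry2 there.

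The change of the strain effect from 8 months to 10 months with vehicle was -0.91 for Dbp (SE 0.15), which is the value that chose it. Beside it the change was -0.64 for Ciart (SE 0.19), -0.58 for Per2 (SE 0.19), -0.36 for Per1 (SE 0.14), -0.30 for Nr1d1 (SE 0.14), -0.22 for Per3 (SE 0.21), -0.19 for Nr1d2 (SE 0.12), -0.18 for Cry2 (SE 0.07) and -0.16 for Tef (SE 0.10). Arntl alone had a positive value, 0.40 (SE 0.11). The median over the members was -0.26, beside 0.00 over all genes. None of the 9 members other than Dbp was called, and 0.0621% of all genes were. The fit called Dbp, which its choice on this contrast makes no test, and did not call it without 3xTg-D replicate 3.

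Within groups, animals with more Dbp did not have more or less of the other members in a way that passed a test. Log2 CPM was centred on the mean of each group, which removes the group differences that chose Dbp, and the 9 members were each set against Dbp over 23 libraries. Pearson's r ran from -0.25 (Per1) to 0.20 (Ciart), and Spearman's rho from -0.27 (Per2) to 0.16 (Ciart). In permutation tests of 9 members, two-sided and with Dbp shuffled within groups, the raw p was 0.35 for the r of Per1 and 0.394 for that of Ciart, and every Benjamini-Hochberg adjusted p was 0.95 or above for r and 0.992 for rho. Without the 2 libraries farthest from the median of Dbp (3xTg-D replicate 1 and 3xTg-8M replicate 4), r ran from -0.16 (Per2) to 0.09 (Per3). Arntl, which had the opposite strain difference to Dbp at 8 months, had an r of -0.075 with it within groups.

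The signs of r were not the same at the 2 ages. In the 8 libraries of 8 months r with Dbp was -0.74 for Cry2, -0.73 for Per1 and -0.57 for Per2, and in the 15 libraries of 10 months it was 0.24, 0.36 and 0.22 for the same genes. In 3xTg-8M replicate 4 Dbp was the highest of its group (57.8 CPM) while Per1, Per2, Tef and Cry2 were the lowest of theirs, and without it and 3xTg-S replicate 2 the r of Per1 over all groups was 0.04. Whether r differed between the ages was not tested.

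Several other pairs of members had a higher r than any pair with Dbp. Of the 45 pairs the highest r was that of Per1 with Cry2 (0.75), followed by Per1 with Per2 (0.75), Tef with Per3 (0.64), Tef with Per2 (0.63) and Tef with Nr1d1 (0.53), and the lowest was that of Tef with Arntl (-0.44). Without the 2 libraries that stood apart in the length slope, these were 0.60, 0.50, 0.52, 0.44, 0.53 and -0.40 over 21 libraries. Per2 with Cry2 had an r of 0.51 with those libraries and 0.17 without. The points share libraries and their depth, and the values are a description.

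**Figure D4:**
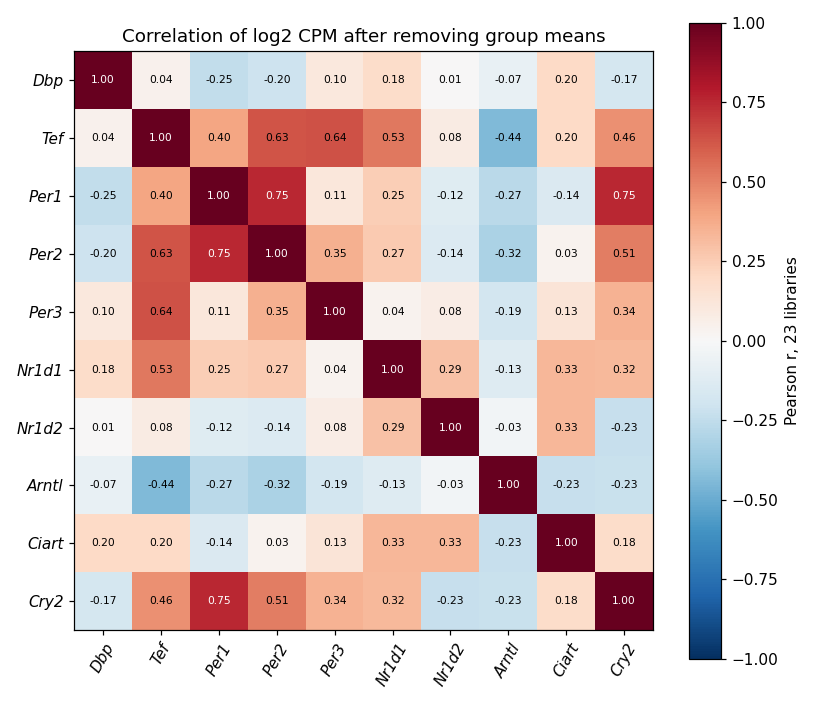
Pearson's r between the 10 clock genes over 23 libraries (rows and columns are genes, colour and printed value are r), computed on log2 CPM after the group means were removed. The row of Dbp lies between -0.25 and 0.20, and the highest pairs are Per1 with Cry2 and Per1 with Per2 at 0.75.

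Among 16554 other genes, 1.11% had an r above 0.5 with Dbp within groups, and the median was 0.01. The highest were Gm49741 (0.74), Epha2 (0.72), Rnaseh1 (0.71), Ube2q1 (0.70), Sord (0.69), Ntmt1 (0.67), Vsig2 (0.67), Elmo3 (0.67), Gstm4 (0.66) and Tmem191c (0.66). The lowest were Bach2 (-0.73), Car15 (-0.71), Traf6 (-0.70), Dnah7c (-0.68) and Gm38253 (-0.67). Several of the named genes had low levels, with means of 0.482 CPM for Gm49741, 0.815 for Epha2, 0.825 for Elmo3, 0.833 for Dnah7c and 0.851 for Gm38253. These r are the extremes of all genes compared and were not tested. No clock member was among them. Ciart, the member with the highest r, ranked 3461st from the top.

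Further genes of the clock and genes that answer to states known to move Per and Dbp transcripts were counted in the same fits. Of 17 further clock genes, among them Clock, Npas2, Cry1 and the Ror genes, none passed at 8 months, with vehicle or with SCDi between the strains, and none passed between SCDi and vehicle. Over all genes 2.58%, 1.39% and 1.32% passed between the strains in these 3 comparisons, and 0% between SCDi and vehicle. At 8 months 7 of the 17 were above 0, with a median log2 fold change of -0.06, and at 10 months with vehicle 8 of 17, with a median of -0.02. The medians over all genes were 0.01 and 0.00. Between SCDi and vehicle, 1 of the 17 was above 0 in 3xTg (median -0.10) and 5 in WT (median -0.06). Between the strains with SCDi 7 were above 0 (median -0.02), and for 3xTg-S against WT-D 4 were (median -0.05). The median over all genes was 0.00 in each of these further comparisons. Of 7 outputs of the clock, among them Usp2 and Wee1, none passed in any of these comparisons. Usp2 was lower in 3xTg with vehicle (log2 fold change -0.30, SE 0.08) and with SCDi (-0.28, SE 0.085). Its groups did not overlap in either, beside 8.05% and 10.2% of all genes. At 8 months it overlapped (-0.12, SE 0.06). Of the 7 outputs, 4 were above 0 with vehicle and 3 with SCDi.

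12 glucocorticoid-responsive genes such as Fkbp5 and Tsc22d3 were above 0 in 11 cases at 8 months (median 0.21) and in 9 with vehicle (median 0.09), and none passed. 9 activity-induced genes such as Fos and Arc were below 0 in 9 cases at 8 months (median -0.24) and in 9 with vehicle (median -0.16), and none passed. The medians over all genes were 0.01 at 8 months and 0.00 with vehicle, and 2.58% and 1.39% of all genes passed. With SCDi the first list was above 0 in 7 of 12 cases (median 0.04) and the second in 4 of 9 (median -0.04), beside a median of 0.00 over all genes. Of 8 temperature-responsive genes, 2 passed at 8 months, beside 2.58% of all genes. Hspa1b, a stress-induced chaperone, was 11 ± 1.95 CPM in 3xTg-8M against 6.39 ± 0.48 CPM in WT-8M (log2 fold change 0.80, SE 0.14), and Dnajb1, its partner, was 57.2 ± 3.85 and 43.5 ± 3.92 CPM (log2 fold change 0.41, SE 0.08). None passed with vehicle, beside 1.39% of all genes, and with SCDi 1 passed, Hspa8, beside 1.32% of all genes. Hspa8 was at 356 ± 29.4 CPM in 3xTg-S and 165 ± 73.0 CPM in WT-S (log2 fold change 1.11, SE 0.21, edgeR adjusted p = 0.0253). Between the strains with vehicle, Hspa8 had a similar log2 fold change of 1.04 with a larger SE (0.34), and the groups overlapped. The part of hormones, activity or temperature in the clock gene values was not tested.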

How the data were processed

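RNA of whole mouse hippocampus was sequenced in 23 libraries of 6 groups. The deposited values are raw counts per gene, which the authors made from single-end reads trimmed with Trimmomatic 0.35 and aligned with STAR 2.5.1b to GRCm38 with a Gencode annotation. They did not normalise, filter or pool them, per the file headers and the study's methods. The strand setting and any collapsing of molecular identifiers are not stated. Lines that name no gene held 24.7% to 30.9% of reads and were left out. Each library held 12.8M to 36.7M gene counts (12.99M to 17.6M at 10 months). The titles give each library a number of its own, and the study calls its replicates biological.

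CPM were computed with TMM in edgeR 4.0.16 (R 4.3.3). Pairwise fits used the libraries of the 2 groups concerned. Genes kept by filterByExpr were tested by quasi-likelihood, and those whose p, adjusted by Benjamini-Hochberg over all genes tested, lay under 0.05 were called. The inhibitor effects of the 2 strains were compared over 15 libraries. Standard errors are the log2 fold change divided by the square root of F. Correlations used log2 CPM (prior count 2) centred within groups, with permutation tests of 100000 resamples. The tests were checked on simulated counts. The study tested at an unadjusted p under 0.01. Exon lengths and overlaps came from Gencode M21, promoter windows from RefSeq. Alternatives were DESeq2 1.42.0 size factors, its likelihood ratio test, no filter, an unadjusted p under 0.01, 1 fit of 15 libraries, a block for runs of 4 animal numbers, and each replicate left out. Leaving out both libraries that stood apart in the length slope was added after seeing the data. The members and gene lists were chosen with earlier results of these data known. Values named are those of the 10 members, of called genes of the lists (up to 3 a comparison), and of the 10 highest and 5 lowest genes by r with Dbp. Usp2 and Fibcd1, which were not called in the comparisons shown for them, were added. One result on a listed gene and one detail of the mouse line are not reported here.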

Additional observations from a re-analysis of the deposited data

Results flagged for a closer look

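In 50 combinations of a member and a group of 4, 3 had a library far from the others of its group by Dixon's test, and chance alone gives about 1 in 20. Tef was 346 CPM in 3xTg-8M replicate 4 and 397 to 402 CPM in the other 3, in a library that also stood apart in the length slope (0.685) and in Ttr (322 CPM). Per2 was 42.2 CPM in WT-D replicate 1 and 36.1 to 37.1 CPM in the other 3. Nr1d2 was 111 CPM in 3xTg-S replicate 3 and 121 to 122 CPM in the other 3. The part of library quality or tissue makeup in these values was not tested. The strain effect on Dbp differed between 10 months with vehicle and 8 months by -0.91 on the log2 scale, with all libraries of 3xTg above WT at 8 months and all below it with vehicle. This difference chose the gene, so it is a description and no p is given.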

How the results depend on the processing

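Over the 8 comparisons no log2 fold change of a member changed sign under an alternative where it had an unadjusted p under 0.05. 2 members passed at 8 months, and 4 did at an unadjusted p under 0.01 or without the 2 libraries that stood apart in the length slope. Leaving out 1 library each gave 2 to 4, with 4 (Tef and Per2 added) without 3xTg-8M replicate 4. 3 were called without the filter on low counts (Per2 added) and with the DESeq2 test (Tef added). With vehicle 0 passed, 3 did at an unadjusted p under 0.01, and Dbp did (1 member) without the filter or with the DESeq2 likelihood ratio test. For SCDi in 3xTg 0 passed, and Dbp did (1) at an unadjusted p under 0.01 or without the filter. For the change of the strain effect with age, on which Dbp was chosen, the fit called 1 (Dbp) and 4 at an unadjusted p under 0.01, and leaving out 1 library gave 0 to 1, with 0 without 3xTg-D replicate 3. For 3xTg-S against WT-D 0 passed, 2 did at an unadjusted p under 0.01, and 1 did without the filter (Per1), with the DESeq2 test or with all 15 libraries in one fit (Cry2 in both). 0 passed in the other comparisons and 0 correlations with Dbp under every alternative run. The cause of these shifts was not tested.

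Over all genes the counts called also shifted. At 8 months 399 were called, with 1066 at an unadjusted p under 0.01, 854 without the filter, 681 with DESeq2 and 227 to 449 with 1 library left out. With vehicle 216 became 769, 792, 386 and 125 to 200, and 355 with all 15 libraries. With SCDi 206 became 649, 729 and 105 to 286, and 78 with a block for runs of animal numbers. For SCDi in 3xTg 0 became 391, 112, 14 and 0 to 1, and in WT 59 and 2, with 0 for DESeq2. For the difference of the inhibitor effects 0 became 57 and 8, for the change with age 10 became 352, 33, 21 and 6 to 17, and for 3xTg-S against WT-D 356 became 1026, 1135, 577 and 155 to 341. The group means of the 10 members moved by under 1 SD in 120 of 120 rescalings. The labels give no replicate numbers that groups share. The block for runs of 4 consecutive animal numbers, which says nothing of pairing by litter or day, called no member in any comparison of 10 months.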

Other observations

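Markers of hippocampal subfields and glia in the same fits gave some differences between the strains. Spink8, a marker of CA1 pyramidal cells, was 24.8 ± 5.88 CPM in 3xTg-8M against 8.74 ± 3.07 CPM in WT-8M (log2 fold change 1.52, SE 0.23, edgeR adjusted p = 0.00421), while Wfs1, also high in CA1, had a log2 fold change of -0.13 (SE 0.13, edgeR adjusted p = 0.637), and 3 of the 6 neuron markers were above 0. With SCDi, Wfs1 was 91.5 ± 4.76 CPM in 3xTg-S (n = 4) and 129 ± 14.6 CPM in WT-S (n = 3), a log2 fold change of -0.50 (SE 0.08, edgeR adjusted p = 0.00785), while Spink8 was higher in every 3xTg-S library at 25.4 ± 3.08 against 14.8 ± 5.13 CPM, a log2 fold change of 0.78 that did not pass (SE 0.19, edgeR adjusted p = 0.0916). With vehicle neither passed, with log2 fold changes of 1.055 for Spink8 (SE 0.29, edgeR adjusted p = 0.115) and -0.40 for Wfs1 (SE 0.09, edgeR adjusted p = 0.0632). Spink8 and Wfs1 thus had opposite signs in each of these strain comparisons. Fibcd1, another of the neuron markers, was at 0.12 (SE 0.12) at 8 months and 0.005 (SE 0.08) with vehicle. The 6 markers of hippocampal neurons summed to 1410 to 1750 CPM in 3xTg-S and 1600 to 1730 CPM in WT-S. In the 3xTg-S and WT-D pair, the oligodendrocyte marker Mbp and the microglia marker Tmem119 were called higher and Wfs1 lower. The part of cell composition in the clock gene values was not tested.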
